A study of Mus musculus with 8 samples.

Results

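Chronic activation of mouse natural killer (NK) cells with interleukin-2 (IL-2) is described here by comparing cells on day 9 of culture with fresh cells on day 0. The comparison rests on 4 of the 8 arrays of the study, 2 biological replicates of each group, chosen by their labels alone. It covers 22180 genes that a transcript cluster of the Affymetrix Mouse Gene 2.0 ST array names without any other symbol. Of these, 13998 were bright enough to be tested, which means that they reached the median of all clusters on at least 2 of the 8 arrays.

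All cells came from mouse bone marrow from which T cells had been removed by CD90 selection. The day 0 group, labelled naive, was fresh and had received no cytokine. The day 9 group, labelled chronic, was grown with 1000 IU/mL of IL-2, given again on day 4, and its adherent cells were collected. The other 4 arrays enter the fit only to share the estimate of spread and to be set beside these values: 2 arrays of cells cultured for 4 days at that IL-2 dose, and 2 arrays of day 9 cells that also carried KU55933 at 7.5 µM from day 4. KU55933 inhibits the kinase ATM. A vehicle control is mentioned for the inhibitor step, but whether the plain day 9 cells were given it is unstated. Neither strain, age and sex nor the number of animals behind a replicate is stated, so p-values measure the spread between these samples. The labels call both kinds of cell NK cells, and no further purification step is described in them.

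NK cells kill infected or transformed cells by releasing granules that hold perforin, a protein that forms pores, and granzymes, proteases that enter the target and start its death. Whether they do so depends on the balance of activating receptors with inhibitory ones, many of which read MHC class I. IL-2 signals through the beta and common gamma chains of its receptor to the kinases JAK1 and JAK3 and the factor STAT5, and drives growth, division and the making of granule proteins. Activated NK cells import amino acids, glucose and cholesterol precursors in larger amounts, and they leave the circulation for tissues when the factor KLF2 and its target receptors are switched off.

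Between day 0 and day 9, 5033 of the 13998 genes rose and 3079 fell (limma on all 8 arrays, Benjamini-Hochberg adjusted p below 0.05). These are 36.0% called higher and 22% called lower, 58.0% called in either direction, and each count of list members below is read against these shares. At least 2-fold changes were called for 2591 genes upwards (18.5%) and for 1252 downwards (8.94%). The median change of all tested genes was 0.09 on the log2 scale. Array medians lay between 3.66 and 3.92. The 2 arrays of a group correlated across genes at 0.976 for day 0 and 0.991 for day 9, and their root mean square SD was 0.267 and 0.186, so the fresh cells were the less even pair. Centring each array on its own median over the tested genes moved all changes by -0.23. It changed the share of calls that were higher from 62.0% to 46.8%, and it is given again beside lists whose direction or balance it turned.

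Of the genes that rose, 1150 stood above day 4 as well, 755 stood below it and 3128 could not be told apart from it. Of those that fell, 782 stood below day 4, 167 above it and 2130 could not be told apart. Day 4 against day 0 called 37.5% of the tested genes higher and 22.4% lower. The direct comparison of day 9 with day 4 called 12.2% of the tested genes higher and 15.6% lower. KU55933 on day 9 called 0.750% higher and 0.236% lower than day 9 without it. The comparisons share day 0 or day 9 arrays, so their values are set side by side only. The plot of change against signal level shows called genes at every signal level, with the largest changes at mean signals between the extremes.

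**Figure D1:**
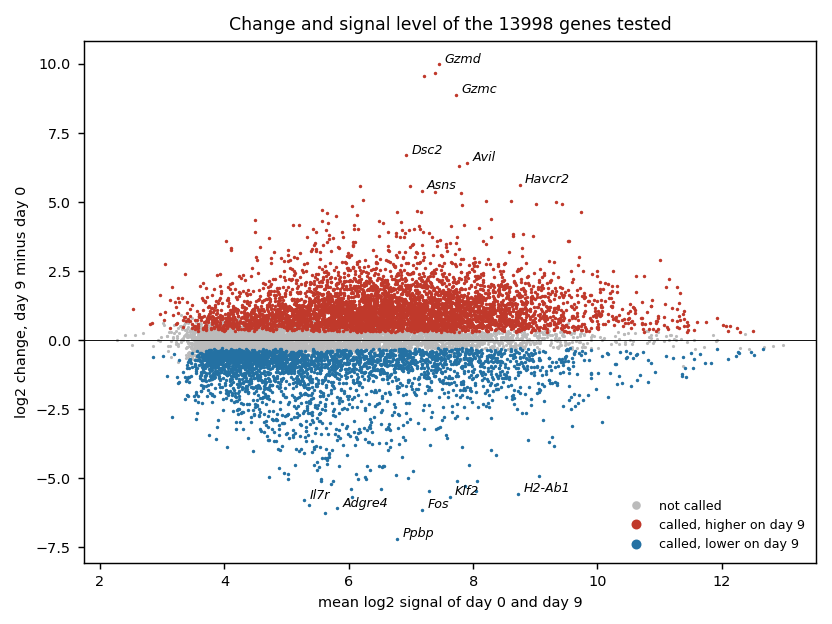
Change from day 0 to day 9 (vertical, log2) against the mean log2 signal of both groups (horizontal) for the 13998 genes tested, 1 point per gene, with called rises in red and called falls in blue. Gzmd lies highest at 9.98 and Ppbp lowest at -7.19, both against a group below the array median.

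The cells were checked first against markers of NK cells and of the other cells that bone marrow could hold. Of 12 NK cell markers 11 were tested, none of them below the array median in both arrays of either day, and their summed signal was 13.40 and 13.48 (log2 of the sum) on day 0 and 14.09 and 14.08 on day 9. On this list 5 genes rose and 4 fell. Ncr1, which encodes the activating receptor NKp46, measured 10.61 and 10.70 on day 0 and 10.26 on both day 9 arrays. Its change of -0.39 ± 0.1 (SE) passed the test (adjusted p = 0.0127) and did not do so without either day 9 array (adjusted p = 0.0582 and 0.0579). Klrb1c, which encodes NK1.1, measured 8.59 and 9.11 and then 8.75 and 8.80, within the range of day 0.

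Marker lists of several other lineages had a higher summed signal on day 0 than on day 9. The 4 with the lowest medians are described first. Of 9 tested B cell markers 8 fell and none rose, with a median of -3.64, and their summed signal went from 10.77 and 10.88 to 7.06 and 7.17. Of 16 macrophage and monocyte markers 13 fell, with a median of -2.90 and a summed signal that went from 12.28 and 12.34 to 8.73 and 8.79. Cd14, the co-receptor for bacterial lipopolysaccharide, was the single macrophage marker that rose. Of 11 dendritic cell markers 9 fell (median -2.58, summed signal 12.98 and 12.96, then 10.71 and 10.62), and Bst2 and Tcf4 rose, Tcf4 no longer without day 9 replicate 1. Of 9 megakaryocyte and platelet markers 8 fell and none rose (median -3.04, summed signal 11.35 and 11.49, then 8.04 and 7.9), although without day 0 replicate 2 there was 1 rise. On both day 9 arrays 2 of the B cell markers lay below the array median, 5 of the macrophage markers, 1 of the dendritic cell markers and 3 of the megakaryocyte markers. In whole-culture RNA, fewer cells of a type and less RNA per cell cannot be told apart.

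Ppbp, a platelet chemokine, had the largest fall of any gene named here: 10.32 and 10.43 on day 0 and 3.27 and 3.10 on day 9. Both day 9 arrays lay below the array median, so the fall is given as at least 102-fold, counting the dim group at the median. H2-Ab1, an MHC class II chain, went from 11.50 on both arrays to 5.80 and 6.06, and H2-Aa, its partner chain, from 9.98 and 10.03 to 4.47 and 4.65. Lyz2, the lysozyme of macrophages and neutrophils, went from 10.45 and 10.56 to 5.29 and 5.18. Cd79a, a chain of the B cell receptor, went from 8.41 and 8.71 to 3.91 and 4.13. In each of these genes both day 0 arrays stood above both day 9 arrays by a wide gap, and day 4 lay between them (Ppbp 5.00 and 5.58, H2-Ab1 9.64 and 9.86, Lyz2 9.30 and 9.45).

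The other marker lists moved less. T cell markers split: Thy1, the antigen CD90 used for the depletion, rose from 8.2 and 8.15 to 10.32 and 10.35, and Cd3e, Cd3g and Cd28 rose, while 6 of 11 fell (median -0.55, summed signal 10.08 and 10.2, then 11.4 and 11.41), among them Cd4 (5.32 and 5.27, then 2.96 and 3.21) and Bcl11b. Of 15 neutrophil markers 6 fell and 3 rose (Ly6g, Mmp9 and Lcn2), which became 1 without either day 9 array. The list's median of -0.19 turned to 0.01 under quantile normalization, and its summed signal of 8.46 and 8.38 on day 0 was 10.09 and 10.07 on day 4 and 7.78 and 7.94 on day 9. On both day 9 arrays 7 of these 15 markers lay below the array median. Of 9 mast cell and basophil markers, Mcpt8 (3.48) and Cma1 (1.49), both serine proteases of mast cell or basophil granules, rose and 5 fell (Prss34, Gata2, Tpsb2, Hdc and Ms4a2). Of the remaining lists, stem and progenitor markers held 6 falls of 8, innate lymphoid cells 2 of 4 with 1 rise (Gata3), erythroid cells 3 of 4 with 1 rise (Tfrc), and stromal and endothelial cells 3 of 7 with 1 rise (Pecam1, 1.91). Summed signal was also lower on day 9 for stem and progenitor cells (9.97 and 10.08, then 9.38 and 9.39). The same held for innate lymphoid cells (8.83 and 9.2, then 7.84 and 7.97). It was higher on day 9 for the erythroid, the mast cell and basophil, and the stromal and endothelial lists. The part of all these cell types in the gene groups below was not tested.

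**Figure D2:**
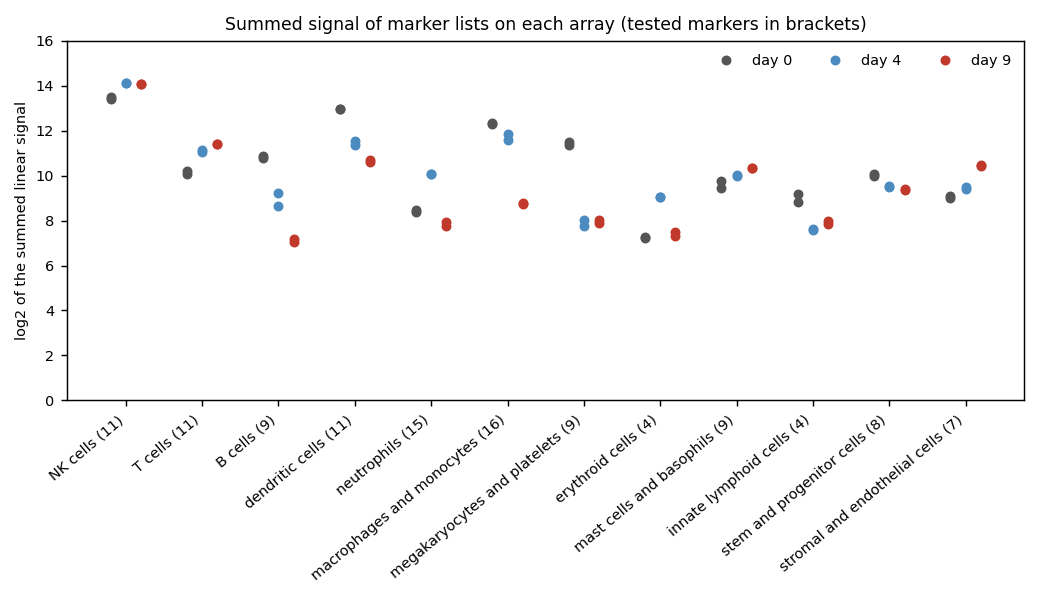
Summed signal of each marker list (log2 of the sum of linear signals, vertical) on the 2 arrays of day 0, day 4 and day 9 (1 point per array). The B cell, dendritic cell, macrophage, megakaryocyte, innate lymphoid cell and stem cell lists are highest on day 0, and the neutrophil list is highest on day 4.

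Promoter motifs known for gene groups described below were looked for, 6 in all. Windows are shown for the amino acid response element bound by ATF4 (TGATGNAA), the interferon-stimulated response element (GAAA, any 2 bases, then GAAA) and the cyclic AMP response element (TGACGTCA), which reads the same on both strands. The 250 bases before each gene's start in the RefSeq promoter table (mouse build GRCm38.p6) were searched on both strands. The windows below belong to genes named in this text, run 5′ to 3′ on the gene's strand, and have the matching bases in capitals.

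Asns (asparagine synthetase, chr6:7693210-7693272, minus strand): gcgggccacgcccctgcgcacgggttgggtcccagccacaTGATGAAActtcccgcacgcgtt

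Slc7a11 (cystine transporter, chr3:50443614-50443719, minus strand): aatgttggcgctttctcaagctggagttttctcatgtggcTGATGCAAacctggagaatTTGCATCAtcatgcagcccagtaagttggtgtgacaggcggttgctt

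Gars (glycyl-tRNA synthetase, chr6:55037931-55038000, plus strand): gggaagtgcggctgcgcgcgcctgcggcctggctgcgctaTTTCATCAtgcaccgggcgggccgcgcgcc

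Isg15 (ubiquitin-like interferon-stimulated protein, chr4:156200835-156200936, minus strand): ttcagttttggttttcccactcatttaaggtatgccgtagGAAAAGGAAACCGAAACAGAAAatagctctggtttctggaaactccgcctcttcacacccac

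Bst2 (tetherin, which holds budding virus at the membrane, chr8:71537547-71537642, minus strand): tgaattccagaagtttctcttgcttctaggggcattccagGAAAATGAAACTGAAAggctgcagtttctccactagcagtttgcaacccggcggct

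Btg2 (antiproliferative early gene, chr1:134079274-134079361, minus strand): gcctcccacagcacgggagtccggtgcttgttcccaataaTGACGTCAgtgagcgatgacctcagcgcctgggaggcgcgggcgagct

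Ppp1r15a (phosphatase subunit GADD34, chr7:45526269-45526320, minus strand): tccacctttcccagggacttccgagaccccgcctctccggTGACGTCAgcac

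The ATF4 element was found in 5 of 23 promoters of ATF4 targets and serine synthesis genes (21.7%), in 2 of 12 of amino acid transporters (16.7%) and in 2 of 11 of tRNA synthetases (18.2%), against 3.91% of all 27025 genes in the table. In Slc7a11 it occurs at 2 places, 66 and 47 bases before the start, once on each strand. The interferon element was found in 8 of 20 interferon-stimulated genes (40%), against 3.46% of all genes, and Isg15 holds 3 overlapping matches. The cyclic AMP element was found in 3 of 22 immediate-early genes (13.6%), against 1.77%. Among the 10924 tested genes with a promoter, the shares were 2.55% (ATF4), 3.19% (interferon) and 2.85% (cyclic AMP). Over all tested genes with a promoter, the ATF4 element occurred in 2.38% of those that rose and in 2.77% of those that fell. Other motifs were searched too. The sterol element (TCACNCCAC) was found in 1 of 20 sterol gene promoters (5%, against 1.22% of all genes and 1.24% of tested genes). The metal element (TGCNCNC) was found in 7 of 10 metallothionein and zinc genes (70%, against 47.2% and 56%). The E-box (CACGTG) was found in 4 of 18 glycolysis genes (22.2%, against 6.86% and 9.47%). These matches describe letters in a window and say nothing on binding.

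Genes of the killing machinery rose, most of all the granzymes of the Gzmc to Gzmg cluster. Of 16 tested lytic granule genes 12 rose and 1 fell, with a median of 1.49. On both day 0 arrays 4 of the 16 lay below the array median and passed the filter through other arrays only, so the filter favours rises in this count. Gzmd measured 2.65 and 2.28 on day 0 and 12.46 and 12.43 on day 9, at least 373-fold higher with day 0 counted at the array median. Gzmc measured 3.08 and 3.5 and then 12.17 and 12.15, at least 305-fold higher. In both genes the day 0 arrays lay below the array median and the day 9 arrays near the top of the scale, and the difference of day 9 from day 4 did not pass the test (0.37, adjusted p = 0.0874 for Gzmd and 0.27, adjusted p = 0.233 for Gzmc).

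Gzmf and Gzmg came up later. Gzmf measured 2.88 and 1.97 on day 0, 7.46 and 7.67 on day 4 and 12.03 and 11.98 on day 9, so that day 9 stood above day 4 by 4.44 ± 0.26 (SE, adjusted p = 1.67e-05). Gzmg measured 2.85 and 2.25, then 9.75 and 9.89, then 12.24 and 12.18, a step of 2.39 from day 4 to day 9 (adjusted p = 7.2e-05). The 3 days did not overlap in either gene. The sequences of these granzymes are closely related, so a part of one signal may come from another copy, and Gzme was not tested because no cluster names it alone.

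Gzmb, Prf1 and Gzma were already bright in the fresh cells and rose less. Gzmb, the main granzyme that activates caspases, measured 9.36 and 9.76 and then 12.50 and 12.42 (2.90 ± 0.15, adjusted p = 3.52e-06). Prf1, perforin, measured 9.53 and 9.65 and then 11.91 and 11.90 (2.31 ± 0.11, adjusted p = 2.3e-06). Gzma measured 11.09 and 11.13 and then 11.80 and 11.74 (0.66 ± 0.11, adjusted p = 0.00103). For Gzmb and Prf1, day 9 did not differ from day 4 past the threshold (-0.07 and -0.04). Gzmk (0.13) and Gzmm (-0.36) did not pass the test. Ctsw, cathepsin W of NK cells, was the one granule gene that fell (-1.17 ± 0.13), and it stood below day 4 as well (-1.01, adjusted p = 0.00103).

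Ctsg, cathepsin G, a serine protease best known from neutrophil granules, was not on that list and was among the largest rises. It measured 5.03 and 4.19 on day 0, 6.38 and 6.49 on day 4 and 10.90 and 10.96 on day 9, a change of 6.32 ± 0.24 from day 0 (adjusted p = 1.01e-06) and of 4.49 from day 4. The 15 neutrophil markers had a median of -0.19 in the same comparison, and their part was not tested. All tested serpins rose, 6 of 6 with a median of 2.24. Serpins are inhibitors of serine proteases. Of the 6 tested, 1 lay below the array median on both day 0 arrays and passed the filter through other arrays only, which favours a rise. Another 5 listed serpins lay below the filter and 4 were not analysed here. Serpinb9b, a close relative of Serpinb9, measured 5.80 and 6.39 and then 11.17 and 11.09 (5.03 ± 0.19). Serpinb9, the inhibitor of granzyme B, measured 8.22 and 8.13 and then 10.25 and 10.32 (2.11 ± 0.11), with day 4 at nearly the same mean. Serpinb1a rose by 2.53 and Serpinb6b by 1.57.

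The machinery that moves and fuses granules showed no common direction. Of 16 genes 6 rose (37.5%) and 4 fell (25%), against 36.0% and 22% of all tested genes, with a median of 0.14. Centring turned the median to -0.09 and the counts to 3 and 5, quantile normalization to -0.21 and 2 and 7, and without day 9 replicate 1 only 3 rose. Rab27a, the GTPase that docks granules, measured 8.61 and 8.45 and then 10.01 and 9.90 (1.42 ± 0.12), and Vamp7, a fusion protein, rose by 1.87 ± 0.20. Lyst, whose loss gives giant granules in Chediak-Higashi syndrome, fell from 8.77 and 8.86 to 6.92 and 6.76 (-1.98 ± 0.11). Unc13d, the priming factor Munc13-4, rose by 0.42 and lost the call without day 9 replicate 1.

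**Figure D3:**
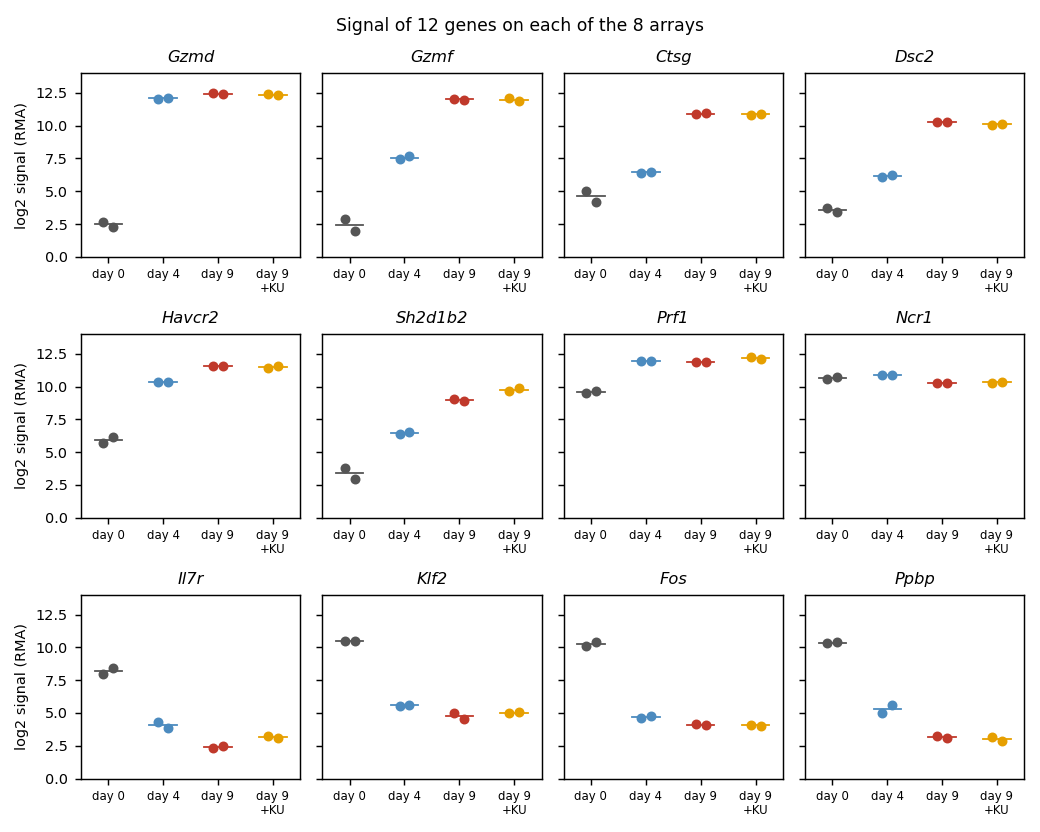
Log2 signal (RMA, vertical) of 12 genes on each of the 8 arrays, with points for arrays and lines for group means. Gzmf, Ctsg and Dsc2 step up between day 4 and day 9, whereas Gzmd is already at 12.07 and 12.08 on day 4, and Il7r, Klf2, Fos and Ppbp are high on day 0 alone.

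Activating receptors and their adaptors changed in both directions. Of 27 tested members 10 rose and 12 fell, with a median of -0.07, which centring made 8 and 13 with a median of -0.3. Sh2d1b2, which encodes the adaptor ERT of SLAM family receptors, measured 3.81 and 2.99 on day 0, 6.35 and 6.57 on day 4 and 9.05 and 8.90 on day 9, at least 33.6-fold higher than day 0. Fcgr3, the Fc receptor CD16 that reads antibody on targets, measured 6.09 and 6.58 and then 9.28 and 9.26 (2.93 ± 0.16, adjusted p = 4.25e-06). In both genes the 3 days stood apart, with day 9 highest. Klrb1b, an inhibitory receptor of the NKR-P1 family kept on this list with its relatives, measured 8.45 and 8.35, then 9.81 and 9.85, a rise of 1.43 that came after day 4 (1.51 above day 4, adjusted p = 3.82e-05). Sh2d1a, the adaptor SAP, rose by 1.39 and Cd244a, the receptor 2B4, by 0.82.

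Falls on this list were largest for Slamf6, a self-ligand receptor of the same SLAM family, which measured 6.28 and 6.69 and then 3.23 and 3.34 and was at least 6.86-fold lower. Syk, a kinase downstream of ITAM adaptors, measured 9.11 and 9.13 and then 6.27 and 6.32 (-2.82 ± 0.10), while Zap70, its relative, did not pass the test (0.09). Cd2 fell by 2.61 and Cd226, the receptor DNAM-1, by 1.40 (7.31 and 7.32, then 5.85 and 5.99). Klrk1, NKG2D, fell by 0.47 ± 0.11. B cell and dendritic cell markers, which include cells that carry Syk and SLAM receptors, fell in the same arrays (medians -3.64 and -2.58), and their part was not tested.

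Of the Ly49 receptors, which read MHC class I, 4 of 11 could be tested, 1 lay below the filter and 6 were not named alone by a cluster or not analysed here. Klra5 measured 5.43 and 4.86 on day 0, 9.69 and 9.76 on day 4 and 10.40 and 10.54 on day 9 (5.32 ± 0.18, adjusted p = 6.92e-07). Klra2 (1.38) and Klra6 (0.91) rose as well, and Klra9 fell from 9.55 and 9.56 to 8.98 and 8.81 (-0.66 ± 0.13) after a lower level on day 4 (8.02 and 8.01). Near-identical copies may share these signals, since the family differs between mouse strains and the strain is not given.

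Of the inhibitory and checkpoint receptors 11 of 23 rose (47.8%) and 8 fell (34.8%), with a median of 0.32. Of all tested genes, 36.0% rose and 22% fell. Havcr2 was the list member among the 12 largest rises named by rule. Havcr2, TIM-3, measured 5.71 and 6.15 on day 0, 10.33 and 10.34 on day 4 and 11.56 on both day 9 arrays (5.63 ± 0.15, 49.6-fold, adjusted p = 3.54e-07). Tigit, which competes with CD226 for the same ligands, measured 4.34 and 5.36, then 8.47 and 8.37, then 9.55 and 9.39 (4.62 ± 0.28). Klrg1, which binds cadherins, measured 6.89 and 7.28, then 10.06 and 9.96, then 10.87 and 10.82 (3.76 ± 0.15). All of them stood above day 4 in the test (1.23, 1.05 and 0.83), and the day 0 arrays of Tigit were the least even.

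Cd96, another receptor for the ligands of TIGIT, measured 7.10 and 7.16 and then 9.90 and 9.92 (2.78 ± 0.11). Ctla4 differed in its timing: 3.95 and 4.57 on day 0, 3.85 and 3.90 on day 4 and 5.57 and 5.61 on day 9 (1.71 above day 4, adjusted p = 0.00049). Pdcd1, PD-1, stayed dim throughout and fell from 4.38 and 4.46 to 3.96 and 4.01 (-0.44 ± 0.10), and Lag3 did not pass the test (0.26, adjusted p = 0.107). Klrd1, CD94, measured 10.58 and 10.72 and then 10.97 and 10.98, a difference of 0.32 just outside the threshold (adjusted p = 0.0502). Its partner Klrc1, NKG2A, fell by 1.19 ± 0.15. Among the falls, Btla measured 7.11 and 7 and then 3.62 and 3.48, at least 10.2-fold lower, and Pilra was at least 6.28-fold lower. Ptpn6, the phosphatase SHP-1, fell by 1.26 ± 0.11. Btla is also a gene of B cells and Pilra of myeloid cells, whose markers fell with them, and their part was not tested.

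The IL-2 receptor and the feedback genes of STAT5 rose. Of 20 tested members 11 rose and 7 fell, with a median of 0.62. Il2ra, the high-affinity chain CD25, measured 5.50 and 5.44 on day 0, 9.06 and 9.21 on day 4 and 9.19 and 9.23 on day 9 (3.74 ± 0.11, adjusted p = 4.56e-07). Il2rb measured 10.38 and 10.50 and then 11.74 and 11.73 (1.29 ± 0.11). Neither chain passed the test between day 4 and day 9 (0.07 and -0.08). The STAT5 feedback inhibitors Cish (2.02 ± 0.15), Socs2 (2.29 ± 0.34) and Socs1 (0.84 ± 0.13) rose. Socs3, the inhibitor induced by STAT3, fell from 7.32 on both arrays to 5.30 and 5.72 (-1.81 ± 0.15).

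The receptors of other cytokines parted. Il12rb1 rose from 5.46 and 5.57 to 8.27 and 8.36 (2.80 ± 0.11) and Il12rb2 by 2.06, so both chains of the IL-12 receptor were higher. Il18r1 fell by 1.25 ± 0.12. Il7r, the receptor of IL-7, measured 7.96 and 8.40 on day 0, 4.31 and 3.88 on day 4 and 2.30 and 2.46 on day 9, at least 22.3-fold lower, and each day stood below the one before it. Bcl6, a repressor that STAT5 opposes in T cells, fell by 2.26. Pim1, a survival kinase of the pathway, rose by 0.75 and came after day 4 (0.86 above it, adjusted p = 0.00194).

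Cytokine and chemokine genes fell more often than they rose: 9 of 16 fell and 4 rose, with a median of -0.51. Ifng, interferon gamma, measured 8.08 and 8.36 on day 0, 7.70 and 7.78 on day 4 and 6.81 and 6.95 on day 9 (-1.33 ± 0.18, adjusted p = 0.000353). The chemokines Ccl3 (-1.21), Ccl4 (-1.43) and Ccl5 (-0.83), which recruit other leukocytes, fell, Ccl5 from 12.14 and 12.15 to 11.33 and 11.30. Xcl1, which draws dendritic cells, measured 11.02 and 10.97, rose to 11.64 and 11.51 on day 4 and lay at 9.63 and 9.74 on day 9, below both. Tnf did not pass the test (-0.07). The 4 rises were Csf2 (3.15 ± 0.40), Lif (2.03 ± 0.24), Tgfb1 (0.98 ± 0.11) and Osm (0.47 ± 0.12), the last of which lost the call without day 9 replicate 1. Csf2 had the least even day 0 pair of these, 2.93 and 4.36, against 6.81 and 6.78 on day 9. With KU55933, Ccl3 (-1.27) and Ccl4 (-1.16) lay lower than on day 9 without it.

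In the TNF superfamily 8 of 20 genes rose (40%) and 7 fell (35%), against 36.0% and 22% of all tested genes. The median of 0.08 turned to -0.15 under centring and to -0.27 under quantile normalization. The rises were the larger. Tnfrsf9, the costimulatory receptor 4-1BB, measured 7.03 and 6.88 and then 11.89 and 11.90 (4.94 ± 0.11, adjusted p = 2.19e-07). Tnfrsf8, CD30, measured 4.81 and 4.11 and then 9.07 and 9.11 (4.63 ± 0.22). Tnfsf4, the OX40 ligand, was at least 5.04-fold higher and the death receptor Tnfrsf10b at least 9.64-fold higher. Tnfsf10, the death ligand TRAIL, rose by 1.71 but lay below day 4 (-1.18, adjusted p = 0.00812), Fasl did not pass the test (0.19), and its receptor Fas fell by 1.22. Cd40, a receptor of B cells and dendritic cells, fell by 2.35.

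TGF-beta genes rose in 7 of 17 cases (41.2%) and fell in 4 (23.5%), with a median of -0.05. These shares were close to those of all tested genes (36.0% higher and 22% lower). Centring made the counts 6 and 6 with a median of -0.28, and quantile normalization 6 and 7. Ltbp3, which anchors latent TGF-beta, rose by 1.54 ± 0.13, and Lrrc32, GARP, which presents it on the cell surface, measured 3.96 and 4.10 and then 5.16 and 5.11 (1.11 ± 0.12). Itgav, the integrin chain that releases it, rose from 7.85 and 7.72 to 10.37 on both arrays. The 4 falls were the signal carrier Smad3 (-2.29), its inhibitor Smad7 (-1.21), the corepressor Ski (-1.13) and the co-receptor Tgfbr3, at least 2.33-fold lower. Lrrc32 was higher still with KU55933, at 7.07 and 6.83.

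Genes of circulation and homing fell. Of 14 tested members 8 fell and 4 rose, with a median of -1.74. Klf2, which maintains the program of circulating lymphocytes, measured 10.45 and 10.47 on day 0, 5.56 and 5.6 on day 4 and 5.03 and 4.54 on day 9 (-5.68 ± 0.16, adjusted p = 3.81e-07). Its target S1pr1, the receptor that lets lymphocytes leave tissue, measured 7.53 and 7.35 and then 3.45 and 3.30, at least 13.3-fold lower. S1pr5, the receptor that NK cells use to leave bone marrow, measured 8.16 and 7.6 and then 4.84 and 4.75 (-3.09 ± 0.18). In all 3 genes both day 0 arrays stood above both day 9 arrays.

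Among chemokine receptors, Cxcr4, which holds cells in bone marrow, measured 9.47 and 9.35 and then 4.78 and 4.55 (-4.75 ± 0.14). Ccr7, the lymph node receptor, fell by 3.22 ± 0.13 and Cxcr3, the receptor for interferon-induced chemokines, by 1.03 ± 0.13. Rises were found for Ccr2 (1.57), Cxcr6 (1.24), Selplg (0.72) and Cd69. Cd69, which opposes S1PR1, measured 9.03 and 9.40 on day 0, 8.98 and 8.94 on day 4 and 10.69 and 10.63 on day 9, so its rise came after day 4 (1.70, adjusted p = 0.000109). Cxcr4 and Ccr7 are also carried by B cells, whose markers had a median of -3.64 in the same arrays.

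Integrins and adhesion genes changed their set: 5 of 20 rose and 12 fell, with a median of -0.79. Itga1, CD49a, a collagen receptor of tissue-resident NK cells, measured 4.84 and 5.03, then 7.66 and 7.53, then 8.42 and 8.24 (3.39 ± 0.12, adjusted p = 9.33e-07). Itga2, CD49b, the collagen receptor used to identify circulating NK cells, measured 9.28 and 9.34, then 7.17 and 7.06, then 6.60 and 6.37 (-2.83 ± 0.12, adjusted p = 1.5e-06). The 2 genes moved in opposite directions at each step, without overlap between days. Rises were also seen for Itgav (2.59), Itga5 (1.41), Itgb3 (1.08) and Itga3 (0.82). Itgb3 dipped first: 8.81 and 8.72, then 8.14 and 7.84, then 9.88 and 9.81. Itga6 (-2.98), Itga4 (-2.15) and Itgam (-1.62) fell, and Itgam lay lower again with KU55933 (6.07 and 5.95, against 7.45 on both day 9 arrays). Itgae was dim and did not pass the test (-0.29).

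Cadherins and desmosome genes, which join epithelial cells, rose in most of the tested cases. Of 14 tested members 12 rose and 1 fell (Ctnnd1), with a median of 1.27, and 8 also stood above day 4, where 12.2% of all tested genes did. Another 4 listed genes lay below the filter, and 5 tested members lay below the array median on both day 0 arrays. Those 5 passed the filter through other arrays only, so the filter favours rises in this count. Dsc2 measured 3.73 and 3.44 on day 0, 6.10 and 6.25 on day 4 and 10.27 on both day 9 arrays, at least 82.5-fold higher than day 0. Dsg2, its partner, measured 2.95 and 3.47, then 2.80 and 3.55, then 7.88 and 7.97, at least 16.2-fold higher, and its day 4 arrays lay on either side of the day 0 arrays. Dsg3 also came up after day 4 (3.27 and 3.01, then 3 and 3.06, then 5.69 and 5.82) and was lower with KU55933 (-1.67). Cdh1, E-cadherin, a ligand of KLRG1, measured 5.96 and 6.13, fell to 4.58 and 4.51 on day 4 and reached 7.48 and 7.45 on day 9. Cdh17 rose from 4.05 and 3.82 to 7.80 and 7.89 (3.91 ± 0.13). Of 7 stromal and endothelial markers, Pecam1, which leukocytes also carry, rose and 3 fell, and their part was not tested.

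Transcription factors of the NK lineage fell more often than they rose, 16 against 11 of 31, with a median of -0.50. The T-box factors parted: Eomes rose from 8.89 and 8.56 to 9.49 and 9.62 (0.83 ± 0.13), whereas Tbx21, T-bet, fell from 8.26 and 8.57 to 7.31 and 7.30 (-1.11 ± 0.15). Zbtb32, a zinc finger factor needed for NK cell expansion in viral infection, measured 5.21 on both arrays, then 8.57 and 8.52, then 7.62 and 7.28 (2.24 ± 0.14), above day 0 and below day 4. Nfil3, needed for NK development, rose by 1.51 and Prdm1, Blimp-1, by 1.03, the latter after day 4 (0.78, adjusted p = 0.00113). Hif1a rose by 2.34, Batf by 1.08, Id2 by 0.74 and Gata3 by 0.64.

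Falls were largest for Id3 (6.77 and 6.26, then 3.82 and 3.63, a change of -2.79 ± 0.21), Zbtb16 (-2.67 ± 0.33), Tox (-1.73), Ets1 (-1.52) and Ikzf3 (-1.38). Irf4 fell by 1.15, and Runx3 did not pass the test (0.23). B cell markers had a median of -3.64 in the same arrays, and the part of B cells in these falls was not tested.

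Immediate-early genes, which answer a stimulus within minutes, were at their highest in the fresh cells. Of 26 genes, all of them tested, 21 fell and 3 rose, with a median of -1.89. Fos measured 10.09 and 10.43 on day 0, 4.59 and 4.8 on day 4 and 4.16 and 4.06 on day 9 (-6.15 ± 0.15, 71.1-fold lower). Nr4a1, an orphan receptor induced by antigen receptor and ITAM signals, measured 10.76 and 10.79 and then 5.13 and 5.47 (-5.48 ± 0.15). Fosb fell by 5.00 and Zfp36, which destabilises cytokine mRNA, by 3.61. The fresh cells alone were not cultured, so culture and IL-2 cannot be told apart in this comparison.

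From day 4 to day 9 the list turned: 12 of its genes stood above day 4 and 2 below it. Of all tested genes, 12.2% stood above day 4 and 15.6% below it. Ppp1r15a measured 9.52 and 9.59 on day 0, 5.41 and 5.28 on day 4 and 7.65 and 7.84 on day 9 (2.40 above day 4, adjusted p = 6.58e-06). Btg2 measured 10.63 and 10.55, then 7.95 and 7.66, then 8.61 and 8.69. Jun (0.77) and Egr1 (0.78) were also above day 4 and remained below day 0. The 3 rises from day 0 were Nr4a3 (1.11), Ier3 (1.05) and Fosl2 (1.00). Ppp1r15a and Btg2 are among the 3 listed genes whose promoter holds the cyclic AMP element shown above.

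Interferon-stimulated genes fell more than they rose. Of 27 tested members 14 fell and 4 rose, with a median of -0.47. Irf7, the factor that amplifies the type I interferon response, measured 8.11 and 8.36, then 6.09 and 6.18, then 5.64 and 5.55 (-2.64 ± 0.12, adjusted p = 2.02e-06). Oasl2 measured 5.04 and 5.49, then 5.53 and 5.68, then 3 and 3.05, at least 2.96-fold below day 0 and below day 4 as well. Oas2 was at least 4.92-fold lower and Rtp4 fell by 1.36. In these genes day 9 lay below both day 0 and day 4. The 4 rises were small: Isg20 (0.91), Eif2ak2 (0.68), Bst2 (0.60) and Herc6 (0.59). Isg15, whose promoter is shown above, did not pass the test (6.28 on both arrays, then 6.01 and 6.05), and neither did Mx1. With KU55933, 12 of the 27 lay above day 9, where 0.750% of all tested genes did, among them Rtp4 (2.16), Oasl2 (2.03) and Irf7 (1.23). Irf7 is abundant in plasmacytoid dendritic cells, and the dendritic cell list fell in the same arrays.

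The interferon-inducible GTPases attack vacuoles of intracellular microbes. They rose in 5 of 12 cases (Gbp4, Gbp7, Gbp9, Gbp10 and Igtp) and fell in 1 (Irgm1), with a median of 0.29. These are 41.7% and 8.33%, against 36.0% and 22% of all tested genes. Without day 9 replicate 1 only 3 rose, and centring left 3 higher and 2 lower. Gbp7 measured 7.14 and 7.09, then 9.27 and 9.32, then 9.08 and 9.11 (1.98 ± 0.11). Gbp10 stepped up after day 4, from 8.81 and 8.66 to 9.92 and 9.93. The call of Gbp9 was lost without day 9 replicate 1 and that of Irgm1 (-0.36, adjusted p = 0.0499) without day 0 replicate 2 or either day 9 array, which left none lower in the last 2 cases. The family has close copies, so signals of single members are uncertain.

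MHC class I genes changed in both directions. Of 19 tested members 9 rose (47.4%) and 5 fell (26.3%), against 36.0% and 22% of all tested genes, with a median of 0.28. Centring made the counts 5 and 6, quantile normalization 6 and 7 with a median of -0.11, and without day 9 replicate 2 only 5 rose. The heavy chains H2-K1 (11.59 and 11.47, then 10.89 and 10.90, a change of -0.63 ± 0.11) and H2-Q4 (-1.42 ± 0.13) fell, as did the trans-activator Nlrc5 (-1.32), Psme2 (-0.87) and Psmb10 (-0.47). The chaperones Canx (1.39) and Pdia3 (1.22) and the peptide trimmer Erap1 (1.27) rose. B2m, the light chain, measured 12.26 and 12.40 and then 12.69 and 12.65, a rise of 0.34 that lost the call without 3 of the 4 arrays in turn.

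Transcripts of amino acid supply were higher on day 9 in the lists of transporters, of synthesis genes and of enzymes that charge tRNA. Of 17 transporters 13 rose and 3 fell, with a median of 1.56. On both day 0 arrays 2 of the 17 lay below the array median, and on both day 9 arrays 1 did. Such members passed the filter through other arrays only, which favours rises for the 2 and a fall for the 1. Slc7a5, the large neutral amino acid carrier, measured 6.58 and 6.52, then 10.91 and 11.00, then 11.46 and 11.50 (4.93 ± 0.10, adjusted p = 2.19e-07). Slc7a3, a carrier of arginine and lysine, measured 3.40 and 3.42, then 4.44 and 4.57, then 7.32 and 7.58, at least 11.7-fold higher, most of it after day 4. Slc7a11, the cystine carrier with 2 ATF4 elements in its promoter, measured 2.90 and 3.24, then 4.33 and 4.93, then 6.12 and 5.80, at least 4.16-fold higher. Each day stood above the one before in all of them. Slc36a1 (-0.98), Slc43a1 and Slc43a2 (-1.46) fell.

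Of 26 targets of ATF4 and genes of serine synthesis 21 rose and 2 fell, with a median of 2.16. On both day 0 arrays 4 of the 26 lay below the array median. These 4 passed the filter through other arrays only, so the filter favours rises in this count. On day 9, 20 stood above day 4 and none below it, against 12.2% and 15.6% of all tested genes. Asns measured 4.95 and 3.99 on day 0, 8.94 and 8.92 on day 4 and 9.84 and 9.91 on day 9 (5.41 ± 0.27, adjusted p = 2.59e-06). Trib3, an ATF4 target that inhibits AKT, measured 5.13 and 4.84, then 5.98 and 5.78, then 8.81 and 9.11, with most of its rise after day 4 (3.08, adjusted p = 7.79e-06). Ddit3, CHOP, measured 7.68 and 7.89, then 5.19 and 5.29, then 8.60 and 8.61, and with KU55933 it was lower (7.50 and 7.65). Atf4 itself did not pass the test from day 0 (0.27, adjusted p = 0.0975) and was above day 4 (0.56, adjusted p = 0.0127). Cebpb (-1.76) and Ppp1r15a (-1.81) were the falls from day 0, and both were above day 4.

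Of 17 cytosolic tRNA synthetases 16 rose and none fell, with a median of 2.03. Wars, the tryptophanyl enzyme that interferon also induces, measured 6.96 and 7.01, then 9.00 and 8.93, then 10.20 and 10.17 (3.20 ± 0.11), and was lower with KU55933 (-0.68). Gars measured 7.91 and 7.84 and then 10.67 and 10.77 (2.85 ± 0.11), Iars rose by 2.80 and Eprs by 2.75. Most of this rise was present by day 4, when 16 of the 17 were higher, against 37.5% of all tested genes. Between day 4 and day 9, 4 rose and 3 fell, against 12.2% and 15.6% of all tested genes.

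Genes of sterol and fatty acid synthesis stayed above day 0 and had come down from day 4. Of 26 genes 24 rose from day 0 with a median of 1.81. Then 19 stood below day 4 and 1 above it, where 15.6% and 12.2% of all tested genes did. Cyp51 measured 4.98 and 4.92, then 9.70 and 9.66, then 8.83 and 8.86 (3.89 ± 0.11 from day 0 and -0.83 from day 4). Hmgcs1, the entry enzyme, measured 6.75 and 6.66, then 11.07 and 11.03, then 10.55 and 10.59. Sqle did not pass the test between day 4 and day 9 (-0.23, adjusted p = 0.225), and Hsd17b7 lay 0.82 below day 4. Glycolysis genes rose in 13 of 19 cases and fell in 2 (Pfkfb3 and Pfkfb4), with a median of 1.66. Slc16a1, the lactate carrier, rose by 3.19, Pgk1 by 2.71, Pgam1 by 2.44 and Gapdh by 2.22 (10.07 and 10, then 12.24 and 12.26).

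Genes of the oxygen response rose in 10 of 17 cases and fell in 2 (Egln2 and Adm), with a median of 1.14. Vegfa, the vascular growth factor, measured 7 and 6.44, then 6.74 and 6.93, then 8.83 and 8.79 (2.09 ± 0.18), so its rise lay after day 4 (1.97, adjusted p = 0.000179). Ndrg1 measured 6.70 and 6.44, then 7.42 and 7.49, then 9.08 and 9.02. Epas1, HIF-2 alpha, rose by 2.19 and P4ha1 by 2.06. Egln3, an oxygen sensor that HIF induces, rose by 1.14 on day 9, and lay at 8.03 and 8.27 with KU55933 against 5.10 and 5.41 without it.

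Genes of protein folding in the endoplasmic reticulum rose in 13 of 18 cases and fell in 2, with a median of 0.78. Eif2ak3, PERK, the kinase that starts the ATF4 branch, measured 6.65 and 6.75, then 8.43 and 8.37, then 9.23 and 9.31 (2.57 ± 0.11). Sel1l rose by 2.15, Hyou1 by 1.54 and Xbp1 by 1.35. The falls were the chaperone Hspa5, BiP (-0.51 ± 0.11), and its partner Dnajb9 (-0.80 ± 0.14). The antioxidant list rose in 4 of 15 cases (26.7%) and fell in 3 (20%), below the 36.0% and 22% of all tested genes. The median of 0.11 turned to -0.12 under centring and to -0.15 under quantile normalization. Sqstm1, the autophagy receptor p62, measured 9.46 and 9.48, then 9.48 and 9.47, then 11.77 and 11.78 (2.31 ± 0.10), with day 4 in the range of day 0. Txn1 (1.15), Slc7a11 and Txnrd1 (0.52, not without day 9 replicate 2) rose too, and Hmox1 (-1.28), Gclm (-1.23) and Nfe2l2 (-0.77) fell.

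Metallothioneins, which bind zinc and copper, and zinc carriers rose in 11 of 13 cases with none lower (1 without day 0 replicate 2) and a median of 1.46. Mt2 measured 6.61 and 7.03, then 10.10 and 10.12, then 11.84 and 11.83 (5.01 ± 0.15, adjusted p = 4.5e-07). Mt1 measured 7.59 and 7.97, then 9.84 and 9.82, then 10.67 and 10.64 (2.87 ± 0.14). Both stood above day 4. The importers Slc39a14 (2.82) and Slc39a6 (2.71) rose. Mt1 and Mt2 are close in sequence, and a part of one signal may come from the other.

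Division genes had risen by day 4 and were at or below the fresh level on day 9. Of 31 genes of G2 and mitosis 31 were higher on day 4 than on day 0, against 37.5% of all tested genes, and 31 were lower on day 9 than on day 4, against 15.6%. Against day 0, 16 were lower on day 9 and 1 higher (Bub3, and 2 without day 0 replicate 2), with a median of -0.44. Mki67, the proliferation antigen, measured 8.22 and 8.28, then 10.66 and 10.54, then 6.88 and 6.61 (-1.51 ± 0.14 from day 0). Top2a measured 7.08 and 6.99, then 9.91 and 9.84, then 6.18 and 6.16, and Ccna2, cyclin A, 6.68 and 6.67, then 10.02 and 9.98, then 5.66 and 5.78. In all 3 the fresh cells lay between the other days. H1f5, a linker histone of dividing cells, went from 8.34 and 8.50 through 10.15 and 10.17 to 5.65 and 5.45.

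Of 32 genes of G1, S phase and replication 8 were higher and 11 lower than day 0 (median -0.13). Centring made these 7 and 15 (median -0.36). Against day 4, 29 lay below and 1 above, where 15.6% and 12.2% of all tested genes did. Ccnd2 measured 9.04 and 9.28, then 10.27 and 10.36, then 11.15 and 11.22 (2.03 ± 0.12) and was the 1 gene above day 4. Cdk6 rose by 2.27 and Cdk4 by 1.32, the latter from a higher level on day 4 (-0.86 from day 4), Ccnd1 fell by 3.32, and Ccnd3 did not pass the test (0.05). E2f8 (-1.49), E2f2 (-1.31) and Tk1 (-1.08) were lower than day 0.

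The list of cell cycle inhibitors and genes linked to arrest rose in 6 of 13 cases (46.2%) and fell in 2 (15.4%). Of all tested genes, 36.0% rose and 22% fell. The list median was 0.31. Centring made the counts 4 and 3 and quantile normalization 4 and 4. Cdkn1a, p21, measured 6.88 and 6.86, then 9.24 and 9.33, then 10.74 and 10.73 (3.86 ± 0.10). Cdkn2b, p15, measured 6.16 and 6.49, then 7.07 and 6.90, then 8.79 and 8.71 (2.43 ± 0.14). Cdkn2a, whose locus encodes p16 and p19ARF, measured 6.83 and 6.66, then 6.85 and 6.73, then 7.69 and 7.53 (0.87 ± 0.13), and day 9 stood above day 4 (0.82). The falls were Cdkn1c, p57, and Lmnb1, lamin B1, which is a protein of the nuclear lamina and no inhibitor. Cdkn2c, p18, rose by 1.28 and lay below day 4 (-1.10).

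Of 29 targets of p53 14 rose (48.3%) and 8 fell (27.6%), against 36.0% and 22% of all tested genes. The list median was 0.31. Centring made the counts 12 and 10 with a median of 0.08. Against day 4, 13 stood above and 3 below, where 12.2% and 15.6% of all tested genes did. Ccng1 measured 7.70 and 7.79, then 10.31 and 10.40, then 11.35 and 11.31 (3.59 ± 0.11), and Mdm2, the ligase that restrains p53, 7.27 and 7.66, then 8.45 and 8.66, then 10.05 and 10.08 (2.60 ± 0.15). Plk2 (-2.77) and Pmaip1, NOXA (-2.69), were among the falls. In the BCL2 family 6 of 14 rose (42.9%) and 2 fell (14.3%, Mcl1 at -0.91 and Pmaip1), against 36.0% and 22% of all tested genes. The median of 0.13 turned to -0.09 under centring. Bcl2 measured 9.26 and 9.08 and then 10.91 and 10.92 (1.75 ± 0.12). Bcl2l11, the killer BIM, measured 6.66 and 6.51, then 7.10 and 7.03, then 8.03 and 8.09 (1.47 ± 0.11), above day 4 as well. The activator Bid (1.23), the pore-forming effector Bak1 (1.22) and the protector Bcl2l1 (0.84) rose.

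**Figure D4:**
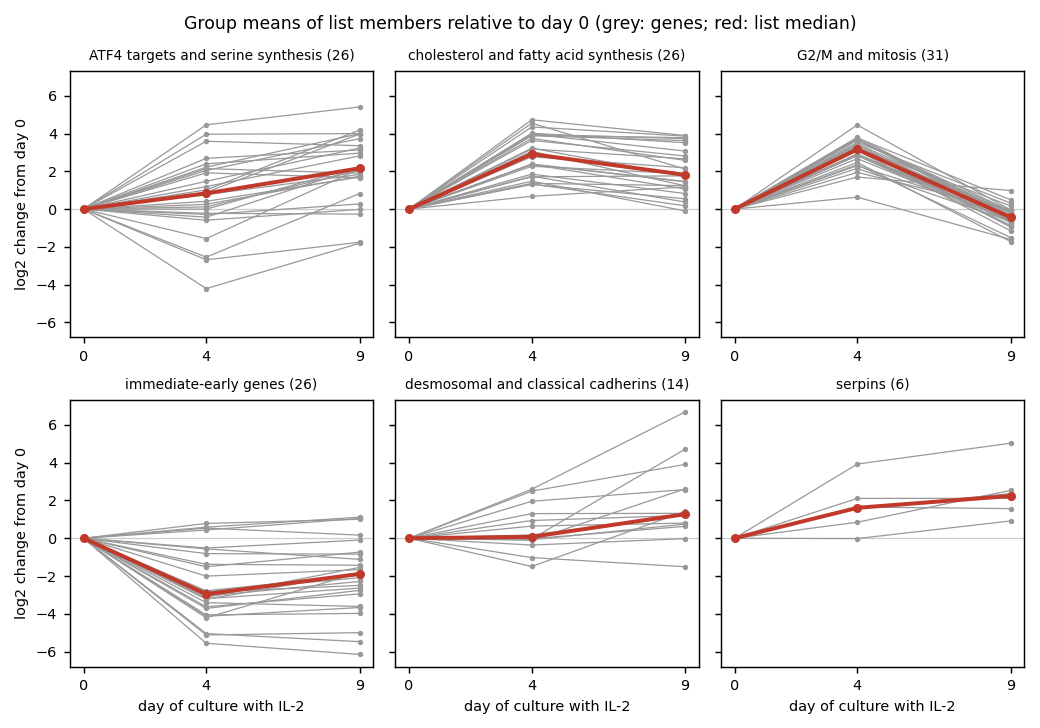
Group means of each list member relative to day 0 (log2, vertical) on days 0, 4 and 9 of IL-2 (horizontal), 1 grey line per gene and the list median in red. ATF4 targets, cadherins and serpins are highest on day 9, sterol genes and mitotic genes peak on day 4, and immediate-early genes are lowest on day 4.

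Over all tested genes, 69 were at least 4-fold above both day 0 and day 4, and 67 at least 4-fold below both. Among the named genes of the first kind, Fam171b measured 3.78 and 3.31, then 3.20 and 2.97, then 7.98 and 8.12, and lay lower with KU55933 (5.45 and 5.95). B4galnt2, which adds N-acetylgalactosamine to glycans, measured 3.56 and 3.68, then 3.78 and 4.02, then 8.58 and 8.37, at least 23.8-fold above day 0. Reep6, an endoplasmic reticulum shaping protein, measured 4.6 and 3.79, then 5.68 and 5.54, then 9.75 and 9.80. In Fam171b and B4galnt2 day 4 did not differ from day 0 past the threshold, and in Reep6 it stood above it (1.41).

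Avil, advillin, an actin regulator, measured 4.64 and 4.75, then 8.44 and 8.35, then 11.12 and 11.13 (6.43 ± 0.11, adjusted p = 6.6e-08). Fcrl6, whose human counterpart binds MHC class II, measured 4.62 and 4.79, then 6.93 and 7.07, then 10.14 and 10.01 (5.37 ± 0.12). Of the falls not yet described, Grk3, a kinase that desensitises chemokine and other G protein-coupled receptors, measured 8.96 and 8.82 and then 3.23 and 3.19, at least 36.3-fold lower. Adgre4 was at least 35.7-fold lower, H2-DMb2 at least 33.1-fold and Pld4 at least 32.6-fold, and Cd81 fell by 5.39. Adgre4, H2-DMb2 and Pld4 are genes of myeloid or antigen-presenting cells, whose marker lists fell in the same arrays.

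**Figure D5:**
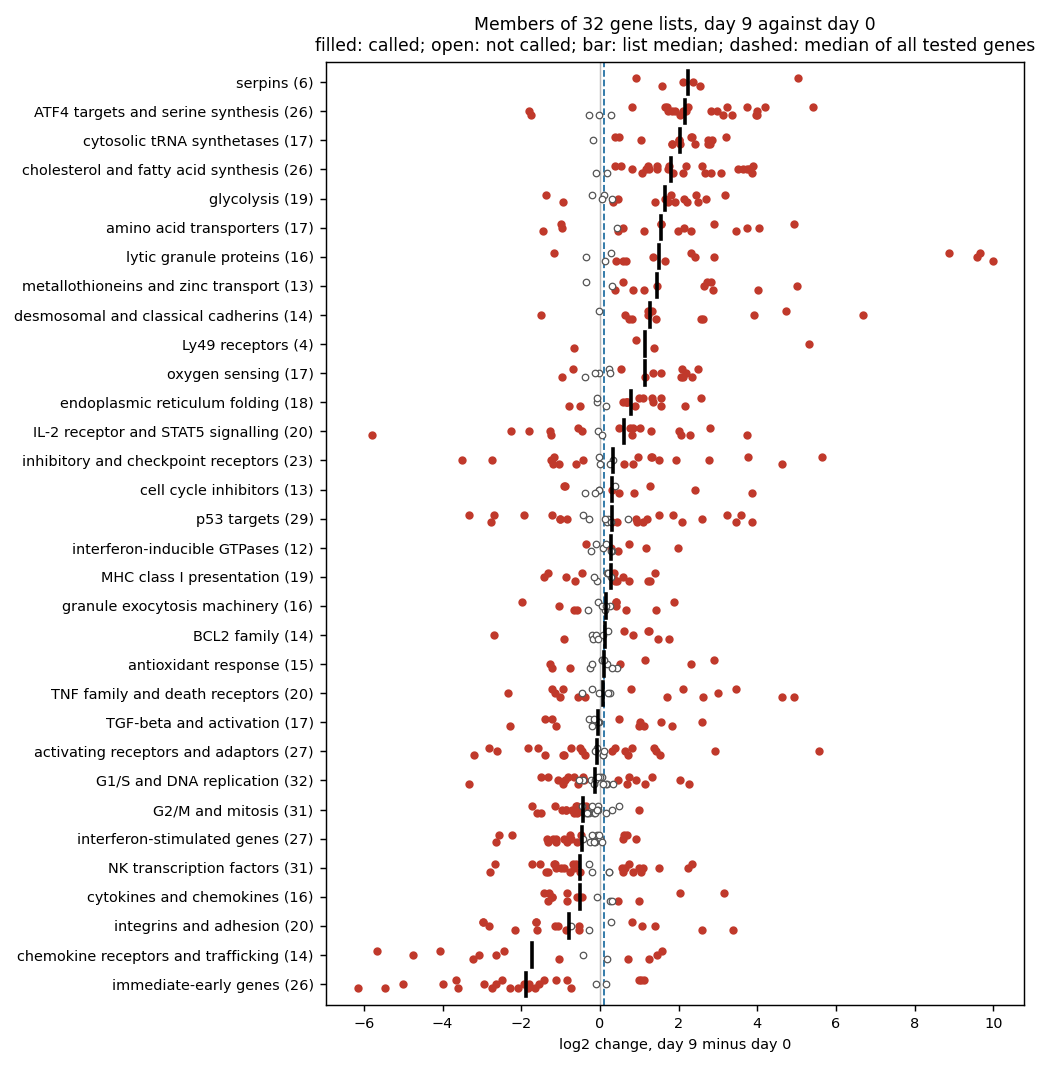
Change from day 0 to day 9 (log2, horizontal) of each tested member of 32 gene lists, with called members filled, others open, list medians as bars and the median of all tested genes dashed. Serpins and ATF4 targets have the highest medians (2.24 and 2.16), and homing and immediate-early genes the lowest (-1.74 and -1.89).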

How the data were processed

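Per the submitters' processing notes, RMA was used, and the authors deposited log2 signals for 41345 transcript clusters. The authors' second table gives averages per group for 11036 clusters with p-values across conditions, and the same notes name the Transcriptome Analysis Console (versions and genome build: not given in the sources used here). Those p-values answer no single comparison, so its averages served as an alternative only, and they lay within 0.005 of the means of 2 arrays. Symbols came from the array's annotation table: 23521 clusters named 1 symbol, 1820 several and 16004 none. Where a gene had several clusters the brightest one stood for it (22180 genes). The test kept 13998 genes that reached percentile 50 on 2 or more arrays. A gene dim in 1 group passes only through other arrays, which favours calls with that group lower. Among the calls, 279 rises had both day 0 arrays below the median, and 506 falls had both day 9 arrays below it.

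The 8 arrays entered 1 limma fit of group means (limma 3.58.1, R 4.3.3, empirical Bayes, 4 residual and 3.69 prior degrees of freedom), and p-values were adjusted by Benjamini-Hochberg over all tested genes and called below 0.05. The code was tested on simulated data. Where both arrays of 1 group lay below the array median, a fold is given as a bound with that group at the median. The number of arrays limits the precision, and no batch information was used here.

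The 32 gene lists and 12 marker lists hold 823 genes, of which 695 were tested, 40 lay below the filter and 88 were not named alone by a cluster or not analysed here. Lists and members were chosen with earlier results of these data known. The rule for named genes was: the 12 largest rises and 12 largest falls without overlap of arrays, the 4 called members of each list with the lowest adjusted p each way, 6 largest differences from day 4 each way, and a fixed set of NK cell genes. Predicted, antigen receptor and small RNA genes were left out. Genes named only to complete a short count (Itga3, Igtp, Psmb10, Ms4a2, Zap70) were chosen after their values were seen. Alternatives were filters, cluster choice, centring, quantile normalization, variance settings, replicate blocks, fold minimums and leaving out arrays. Figures used Python 3.11.15 and matplotlib 3.10.9.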

Additional observations from a re-analysis of the deposited data

Results flagged for a closer look

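Of the genes called both on day 4 and on day 9 against day 0, 256 changed in opposite directions, 80 of them higher and 176 lower on day 9, and 21 of the genes named by rule are among them. For each of these the difference between day 9 and day 4 was itself called by limma, and it is given here on the log2 scale.

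The 17 genes that were above day 0 on day 4 and below it on day 9 were mostly genes of division: Depdc1a (-4.70), Shcbp1 (-4.64), H1f5 (-4.61), Ccna2 (-4.28), Kif23 (-4.19), E2f8 (-4.17), Mki67 (-3.86), Top2a (-3.70), Tk1 (-3.44), Cdc25b (-2.24) and E2f2 (-2.22). The others were the lamin gene Lmnb1 (-2.98), the neutrophil genes S100a8 (-4.73) and S100a9 (-4.42), the basophil protease Prss34 (-2.61), the chemokine Xcl1 (-1.89) and the GTPase Irgm1 (-0.91). The fall of Depdc1a from day 0 was lost without day 9 replicate 2, and that of Shcbp1 without day 0 replicate 2 or either day 9 array. Irgm1 lost it without the same 3 arrays. Both day 9 arrays of Depdc1a, Shcbp1, S100a8 and S100a9 lay below the array median, so their differences are measured values with no reliable size. With day 9 counted at the median they were at least 17.2-fold, 21.7-fold, 10-fold and 12.8-fold below day 4. Depdc1a lay below the median on both day 0 arrays too, so its order between day 0 and day 9 compares dim signals.

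The 4 genes below day 0 on day 4 and above it on day 9 were Ddit3 (3.37), the protease Cma1 (3.29), Cdh1 (2.92) and Itgb3 (1.86).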

How the results depend on the processing

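Of 303 called genes named by rule, 288 kept the call whichever array was left out, and no named gene that was called changed direction under an alternative. The exceptions under leaving out arrays are given beside the genes, apart from Col1a1, Epor, Kdr, Ly6g and Mmp9. The count of 5033 rises became 2591 with a minimum of 2-fold, and lay between 4383 and 5282 with an array left out. The count of 3079 falls became 4640 with centred arrays, 1872 with the filter at percentile 75 (8360 genes tested) and 1252 with a minimum of 2-fold, and lay between 2342 and 3167 with an array left out. Calls in either direction became 3843 with the 2-fold minimum. Centring lowered all changes by the same shift, and stricter filters and minimums test or keep fewer genes. With the mean of a gene's clusters, 24 called genes changed sign, and with quantile normalization 71. The authors' averages gave no count. They cover 303 of the 318 named genes, a number counted separately from the 303 called ones. None of the called genes they cover changed direction, but these averages summarise the same arrays. That outcome was therefore fixed in advance and is no separate check.

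The labels do not say whether replicate numbers pair the samples. The correlations of same-numbered deviations lay between -0.0334 and 0.0529, so no shared replicate effect was seen. With 2 arrays a group this cannot settle whether samples were paired. With the replicate block 5001 genes rose and 3055 fell, and 7901 of 8112 calls were shared. With 2 arrays a group and dim genes near the array median, small changes could be missed, although many of the 8112 calls were below 2-fold.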
